A study of Homo sapiens with 18 samples.

Results

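The genes described here are 10 transcripts that report the output of the MAPK pathway in BRAF-mutant melanoma cells: DUSP4, DUSP5, DUSP6, SPRY1, SPRY2, SPRY4, SPRED1, ETV4, ETV5 and EGR1. They were chosen by name, and all 10 were found among the 58870 genes of the count table. Their RNA was measured by RNA-seq in 3 human melanoma cell lines, WM164, SKMel28 and A375. Each line overexpressed either MAFG, a small MAF transcription factor, or green fluorescent protein (GFP) as control. With 3 libraries in each of the 6 conditions, there were 18 libraries in all. Per the study's methods, the MAFG transgene was a tagged open reading frame driven by an EF1α promoter in a lentiviral vector with blasticidin selection, and the GFP cells carried the same kind of vector. All conditions therefore shared the lentiviral infection, and the growth medium (RPMI with 5% FBS) was also common to them. The study used WM164 and SKMel28 as melanocytic lines and A375 as a line with little MITF.

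In the MAPK pathway, RAS activates the RAF kinases, RAF activates MEK, and MEK activates ERK, which phosphorylates transcription factors and so changes the transcription of a set of target genes. Many of these targets encode brakes on the pathway itself. DUSP proteins are phosphatases that remove the activating phosphates from ERK, while Sprouty (SPRY) and SPRED proteins act upstream, at the level of RAS and RAF. In melanoma cells with mutant BRAF these brakes are transcribed at high levels and fall when the pathway is inhibited, so that their mRNAs serve as a readout of ERK activity. The mRNA levels given here are not a measurement of ERK phosphorylation.

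The MAFG mRNA rose in WM164 cells from 25.8 ± 2.91 to 53.1 ± 4.59 CPM (library-size-scaled counts, normalised over all 18 libraries, mean ± SD, n = 3 libraries) and in SKMel28 cells from 24.1 ± 3.47 to 37.3 ± 1.54 CPM. The log2 fold changes were 1.04 (adjusted p = 6.37e-08, edgeR) and 0.64 (adjusted p = 0.000128, edgeR). In A375 cells, MAFG was at 27.0 ± 4.98 CPM with GFP and at 47.3 ± 9.24 CPM with MAFG, without overlap of the libraries, and the log2 fold change of 0.80 did not pass the test (adjusted p = 0.0655, edgeR). It did pass with DESeq2 (0.80, adjusted p = 0.000768), without the count filter (0.80, adjusted p = 2.28e-06, edgeR) and in the model of all 18 libraries (0.81, adjusted p = 0.00134, edgeR). Without A375 MAFG library 1 or 3 it passed as well (adjusted p = 0.0247 and 0.0442, edgeR). It did not pass with a replicate block, with the size factors of DESeq2 in edgeR or with at least 10 counts in every library. Nor did it pass without A375 GFP library 1, 2 or 3 or without A375 MAFG library 2. It also passed on the log2(TPM + 1) scale, where the log2 fold changes were 2.71, 1.85 and 2.33 in WM164, SKMel28 and A375 cells. The libraries held 20122172 to 39025042 counts (median 31061375), and the 10 feedback genes had 168 to 38528 counts in a library. Of 6 melanocyte lineage markers (MITF, PMEL, TYR, MLANA, DCT and SOX10), 5 fell and 0 rose in WM164 cells with MAFG, 3 fell and 0 rose in SKMel28 cells (of these, MITF and TYR were not called in the model of all 18 libraries), and of the 2 that could be tested in A375 cells 1 rose, SOX10, from 8.85 to 114 CPM. The summed level of these markers was 4483 to 4826 CPM in WM164 GFP and 2416 to 2559 in WM164 MAFG libraries, 4505 to 4764 and 3745 to 3989 in SKMel28, and 35.3 to 41.5 and 119 to 172 in A375, where TYR and MLANA had 0 counts in all libraries. Markers of epithelial, blood and endothelial cells summed to at most 1.27 CPM in any library, and of the 9 on that list, 8 could not be tested in A375 cells and CDH5 was not called there, while 0 could be tested in the other lines. The part of the marker changes in the results below was not tested, and in bulk RNA fewer cells of a type and less RNA per cell cannot be told apart.

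MAFG overexpression went with called changes of most of the feedback genes in WM164 cells, of fewer in SKMel28 cells and of a single one in A375 cells. In WM164 cells, 7 of the 10 rose (DUSP5, DUSP6, SPRY1, SPRY2, SPRY4, SPRED1 and EGR1), 2 fell (ETV4 and ETV5), and DUSP4 was not called. In SKMel28 cells, ETV4 rose, EGR1, SPRY1 and ETV5 fell, and the remaining 6 were not called. In A375 cells, SPRY4 rose and 9 were not called. A call required an adjusted p of at most 0.05 (quasi-likelihood F test of edgeR, adjusted by Benjamini and Hochberg's method over all genes tested in the line). All 10 feedback genes passed the filter on low counts in every line. The fits were less precise in A375 cells. Over all genes, the median standard error of the log2 fold change was 0.18 there, 0.11 in WM164 and 0.12 in SKMel28 cells. DUSP4 and DUSP6, at 0.26 in A375 cells, were not called, while SPRY1 at 0.22 and SPRY2 at 0.21 in WM164 cells were. A difference in the number of calls between lines is therefore not by itself a difference in response. The share of counts from mitochondrial genes moved with the groups in the melanocytic lines: it was 27.1% to 27.4% in WM164 GFP and 23.1% to 25.9% in WM164 MAFG libraries, and 23.7% to 25.4% in SKMel28 GFP and 27.3% to 29.1% in SKMel28 MAFG libraries. It overlapped in A375 cells (13.0% to 15.9% and 12.6% to 16.2%). Its part in the responses was not tested. On the log2(TPM + 1) scale, the median log2 fold change of all genes was 0.14 for WM164, -0.14 for SKMel28 and -0.10 for A375. On this scale 5 feedback genes rose and 0 fell in WM164, while 0 rose and 4 fell in SKMel28 cells. For A375, 0 were called, and 1 had an unadjusted p under 0.05 (limma). Of all genes, 1918 were called on this scale for WM164, in place of 5065 with edgeR. The totals were 2575 in place of 4640 for SKMel28, and 19 in place of 133 for A375. The split of these totals by direction and the number of genes tested on this scale are not given, so the shares over all genes are not known. Whether the feedback genes differed from all genes on this scale was therefore not tested.

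The counts of calls from edgeR are to be read against all genes of a line. Among the 15919 genes tested in WM164 cells, 16.2% rose and 15.6% fell. Among 15523 in SKMel28 cells, 14.6% rose and 15.3% fell. Among 15779 in A375 cells, 0.78% rose and 0.0634% fell. The share called with a fold change above 2 was 6.94%, 4.74% and 0.665% in the same order, against 1 feedback gene (DUSP5) in WM164 and 0 in SKMel28 and A375 cells. For 9 of the 10 genes in WM164 cells, all MAFG libraries lay on one side of all GFP libraries, which held for 43.4% of all genes. The same was true of 6 in SKMel28 cells (43% of all genes) and of 3 in A375 cells (12.8%). Over the 10 genes, the log2 fold changes had medians of 0.23 (WM164), -0.12 (SKMel28) and 0.10 (A375), while those of all tested genes had medians of -0.00, -0.01 and -0.00.

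**Figure D1:**
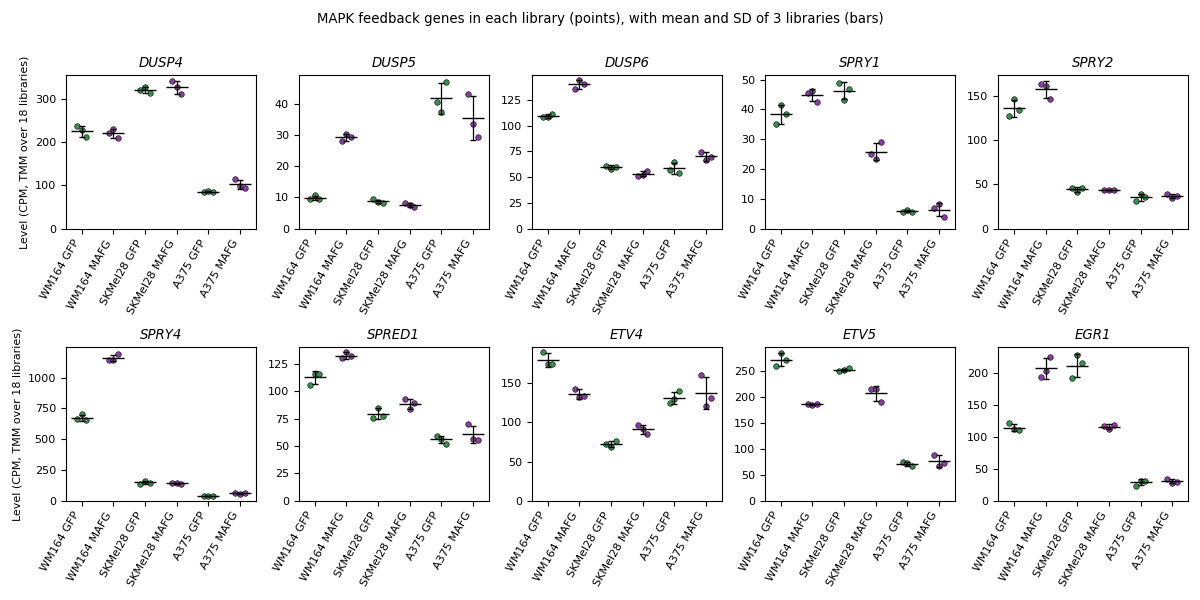
Level of each of the 10 MAPK feedback genes (vertical axis, CPM normalised over 18 libraries, starting at 0) in the 6 conditions (horizontal axis), with each library as a point (green for GFP, purple for MAFG) and bars for the mean and SD of 3 libraries. DUSP5 in WM164 cells moves from 9.86 to 29.3 CPM, SPRY4 spans 39.1 CPM in A375 GFP to 1161 CPM in WM164 MAFG cells, and EGR1 rises in WM164 and falls in SKMel28 cells.

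The DUSP genes encode dual-specificity phosphatases. DUSP5 (ENSG00000138166, chr10:110497907-110511533 of GRCh38, plus strand) makes a nuclear phosphatase that acts on ERK. It was at 9.50, 10.7 and 9.44 CPM in the 3 GFP libraries of WM164 cells and at 28.2, 30.3 and 29.4 CPM in the 3 MAFG libraries. Every MAFG library lay well above every GFP library. The log2 fold change of 1.57 (95% interval 1.38 to 1.76, adjusted p = 2.81e-10, edgeR) was the largest of the 10 genes in any line, and it stayed called under every alternative computed, at 1.41 on the log2(TPM + 1) scale. In SKMel28 cells, DUSP5 was at 9.39, 8.46 and 8.28 CPM with GFP and at 8.14, 7.53 and 6.94 CPM with MAFG. These libraries did not overlap, but the log2 fold change of -0.21 did not pass the test (95% interval -0.50 to 0.09, adjusted p = 0.292, edgeR). In A375 cells, where DUSP5 was highest, it was at 40.7, 37.4 and 47.2 CPM with GFP and at 43.4, 33.7 and 29.5 CPM with MAFG, with overlap (log2 fold change -0.24, 95% interval -0.57 to 0.08).

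DUSP6 (ENSG00000139318, chr12:89347235-89352501, minus strand) encodes a cytoplasmic phosphatase specific for ERK and is among the most used readouts of the pathway. In WM164 cells it was at 108.3, 108.0 and 111.6 CPM with GFP and at 135.5, 143.7 and 140.5 CPM with MAFG. The log2 fold change was 0.36 (95% interval 0.24 to 0.47, adjusted p = 5.40e-05, edgeR), so that a small change stood clear of the replicates. In SKMel28 cells, DUSP6 was at 61.2, 57.7 and 59.7 CPM with GFP and at 51.1, 52.3 and 56.3 CPM with MAFG. Here the MAFG libraries lay below all GFP libraries, and the log2 fold change of -0.16 was not called (adjusted p = 0.0735, edgeR), while without MAFG library 3 it was -0.20 (adjusted p = 0.0421) and on the log2(TPM + 1) scale -0.38 (adjusted p = 0.0207, limma). In A375 cells it was at 57.1, 64.4 and 53.7 CPM with GFP and at 74.6, 66.1 and 69.1 CPM with MAFG, without overlap, and the log2 fold change of 0.26 was not called (adjusted p = 0.731, edgeR). DUSP6 overlaps an unnamed gene on the opposite strand.

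DUSP4 (ENSG00000120875, chromosome 8, minus strand), a nuclear phosphatase of ERK and other MAP kinases, did not pass the test in any line. WM164 cells gave a log2 fold change of -0.03 (95% interval -0.16 to 0.09), SKMel28 cells one of 0.03 (-0.09 to 0.15) and A375 cells one of 0.26 (0.04 to 0.47, adjusted p = 0.617, edgeR). Within the edgeR fit, the intervals limit a change in WM164 and SKMel28 cells to a small size. In A375 cells, all MAFG libraries (94.9, 98.9 and 113.8 CPM) lay above all GFP libraries (84.5, 85.6 and 86.4 CPM). The sign in WM164 and SKMel28 cells flipped on the TPM scales. On log2(TPM + 1) the log2 fold changes were 0.16 and -0.17, both outside the intervals of edgeR.

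Sprouty and SPRED genes encode inhibitors of signalling from receptor tyrosine kinases to ERK. SPRY4 (ENSG00000187678, chr5:142310427-142326455, minus strand) rose in WM164 and A375 cells. In WM164 cells it was at 662.9, 703.5 and 653.2 CPM with GFP and at 1143, 1148 and 1191 CPM with MAFG (log2 fold change 0.78, 95% interval 0.68 to 0.89, adjusted p = 1.49e-09, edgeR). It was at 39.8, 38.1 and 39.4 CPM in A375 GFP and at 63.1, 54.4 and 61.4 CPM in A375 MAFG libraries. This was the single call in A375 cells (log2 fold change 0.60, 95% interval 0.37 to 0.83, adjusted p = 0.0253, edgeR). The A375 call depended on the settings. Without GFP library 1, 2 or 3 or MAFG library 2 or 3, the log2 fold change stayed at 0.57 to 0.66 but the adjusted p was 0.143, 0.213, 0.134, 0.0748 and 0.114, and on the log2(TPM + 1) scale the log2 fold change was 0.44 (adjusted p = 0.966, limma). The call was also lost with the replicate number as a block (0.60, adjusted p = 0.165, edgeR). In SKMel28 cells, SPRY4 was at 138.2, 159.8 and 146.8 CPM with GFP and at 144.7, 142.6 and 135.2 CPM with MAFG, overlapping (log2 fold change -0.07, 95% interval -0.20 to 0.06). SPRY4 overlaps SPRY4-AS1 and other genes on the opposite strand.

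SPRY1 (ENSG00000164056, chr4:123396795-123403760, plus strand) fell in SKMel28 cells, from 48.9, 43.2 and 46.8 CPM with GFP to 24.9, 23.4 and 28.9 CPM with MAFG. The log2 fold change was -0.85 (95% interval -1.04 to -0.66, adjusted p = 2.83e-06, edgeR), and all MAFG libraries were far below all GFP libraries. In WM164 cells it went the other way, from 35.2, 41.3 and 38.5 to 45.7, 46.2 and 42.4 CPM (log2 fold change 0.22, adjusted p = 0.0344, edgeR). That gap was small, and the call was lost without GFP library 1 or 3 or MAFG library 1 or 2 (0.16 to 0.22, adjusted p = 0.0871 to 0.132) and in the model of all 18 libraries (0.22, adjusted p = 0.399). In A375 cells, SPRY1 had the fewest counts of the 10 genes, at 5.63 to 6.14 CPM with GFP and 3.91 to 8.19 CPM with MAFG, and its interval was wide (log2 fold change 0.10, 95% interval -0.46 to 0.66).

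SPRY2 (ENSG00000136158, chr13:80335976-80341126, minus strand) was at 127.2, 146.9 and 134.6 CPM in WM164 GFP and at 164.1, 161.8 and 147.0 CPM in WM164 MAFG libraries. The lowest MAFG library and the highest GFP library nearly met, and the log2 fold change was 0.21 (adjusted p = 0.0174, edgeR). The call was lost without GFP library 1 or 3 or MAFG library 1 or 2 (0.16 to 0.19, adjusted p = 0.0735 to 0.0963), in the model of all 18 libraries (0.21, adjusted p = 0.102) and on the log2(TPM + 1) scale (0.38, adjusted p = 0.0916, limma). It was not called in SKMel28 (log2 fold change -0.04, 95% interval -0.19 to 0.11) or A375 cells (0.06, -0.20 to 0.32). SPRED1 (ENSG00000166068, chr15:38252836-38357249, plus strand), which binds neurofibromin and holds RAS in check, was at 106.1, 116.1 and 115.7 CPM in WM164 GFP and at 130.0, 136.0 and 131.9 CPM in WM164 MAFG libraries. Its log2 fold change was 0.23 (adjusted p = 0.00359, edgeR). The call, but not the size, was lost in the model of all 18 libraries (0.24, adjusted p = 0.0670) and on the log2(TPM + 1) scale (0.40, adjusted p = 0.0747, limma). In SKMel28 cells the response of SPRED1 was 0.16 on the log2 scale and not called (adjusted p = 0.0697, edgeR), with overlap of 83.7 to 92.9 CPM with MAFG and 75.3 to 84.9 CPM with GFP. This passed the test only without GFP library 2 among the left-out libraries (0.21, adjusted p = 0.0280), and the sign flipped on the TPM scales. In A375 cells its response was 0.11 (95% interval -0.14 to 0.36).

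ETV4 and ETV5 encode ETS transcription factors of the PEA3 group, which are induced by ERK and carry its signal on to other genes. Unlike the DUSP and SPRY genes called in WM164 cells, both fell there. ETV5 (ENSG00000244405, chr3:186046314-186110318, minus strand) went from 259.5, 284.4 and 270.2 CPM with GFP to 186.5, 184.1 and 186.2 CPM with MAFG (log2 fold change -0.55, 95% interval -0.66 to -0.44, adjusted p = 2.43e-07, edgeR). The gap between the groups was several times the spread within them. In SKMel28 cells it went from 250.7, 251.8 and 254.7 to 214.4, 216.0 and 189.2 CPM (log2 fold change -0.29, 95% interval -0.42 to -0.16, adjusted p = 0.00187, edgeR). In A375 cells the libraries overlapped (66.7 to 73.6 and 66.4 to 88.8 CPM, log2 fold change 0.09). The deposited TPM of ETV5 spread more than its counts: 56.8, 104 and 101 TPM in the WM164 GFP libraries, against 80.2, 80.1 and 75.6 TPM in the MAFG libraries. On the log2(TPM + 1) scale the WM164 change was smaller and not called (log2 fold change -0.10, adjusted p = 0.766, limma), while the one in SKMel28 cells was (-0.47, adjusted p = 0.00494). ETV5 overlaps DGKG on the same strand and ETV5-AS1 on the opposite one.

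ETV4 (ENSG00000175832, chr17:43527844-43579620, minus strand) moved in opposite directions in the melanocytic lines. In WM164 cells it fell from 190.2, 175.4 and 174.4 to 143.3, 132.1 and 134.3 CPM (log2 fold change -0.40, 95% interval -0.52 to -0.28, adjusted p = 3.19e-05, edgeR). In SKMel28 cells it rose from 72.2, 68.6 and 76.3 to 96.7, 92.2 and 85.3 CPM (log2 fold change 0.34, 95% interval 0.20 to 0.48, adjusted p = 0.00114, edgeR). The MAFG libraries lay below all GFP libraries in WM164 and above all of them in SKMel28 cells. Neither change was called on the log2(TPM + 1) scale (log2 fold changes -0.15 and 0.26, adjusted p = 0.327 and 0.0769, limma). In A375 cells ETV4 was at 125.3 to 140.1 CPM with GFP and 121.3 to 160.3 CPM with MAFG, with overlap (log2 fold change 0.05, 95% interval -0.20 to 0.30). It overlaps DHX8 on the opposite strand.

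EGR1 (ENSG00000120738, chr5:138465479-138469303, plus strand) encodes a zinc finger transcription factor of the immediate early class, transcribed within minutes of ERK activation through serum response factor and ETS partners bound upstream of its start. It had the clearest opposite responses of the 10 genes. In WM164 cells it rose from 120.9, 111.8 and 110.6 to 194.1, 203.3 and 225.5 CPM (log2 fold change 0.86, 95% interval 0.73 to 0.99, adjusted p = 7.32e-09, edgeR). In SKMel28 cells it fell from 192.2, 228.2 and 215.2 to 116.7, 112.6 and 119.1 CPM (log2 fold change -0.87, standard error 0.07, adjusted p = 8.57e-08, edgeR). The levels in WM164 MAFG cells overlapped those in SKMel28 GFP cells, and the levels in WM164 GFP cells overlapped those in SKMel28 MAFG cells. In A375 cells EGR1 was at 23.2, 30.9 and 31.4 CPM with GFP and at 33.7, 27.6 and 29.0 CPM with MAFG, with overlap (log2 fold change 0.07, 95% interval -0.24 to 0.39). Both calls in the melanocytic lines held under every alternative computed.

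Because EGR1 gave these opposite responses, the 250 bases before its start in RefSeq are given here, from chr5:138465229-138465478 of GRCh38.p14, on the plus strand and read 5′ to 3′. The capitals mark matches to the CArG box, the site of serum response factor.
EGR1: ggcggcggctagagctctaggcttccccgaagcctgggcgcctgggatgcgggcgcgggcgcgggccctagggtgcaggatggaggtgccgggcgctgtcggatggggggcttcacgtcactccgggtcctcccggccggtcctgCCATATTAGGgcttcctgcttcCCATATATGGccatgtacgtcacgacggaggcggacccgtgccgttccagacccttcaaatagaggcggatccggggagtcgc

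The RefSeq table held this window for 6 of the 10 genes: DUSP6, SPRY1, SPRY2, SPRY4, SPRED1 and EGR1. Searching both strands, EGR1 was the only one of the 6 with a CArG box, with matches from -105 to -96 and from -83 to -74 relative to the start, and 1.14% of 27305 human windows of the same length held one. The letters CCGGAA, a form of the ETS site, were present in SPRY2 (14.8% of all windows). Other forms of the ETS site were not searched, so the other windows, that of EGR1 included, may hold some. TGACNNNGC, the core of the element that MAF and CNC factor pairs bind, was present in SPRY4 (11.0% of all windows). In SPRY4 the match lies from -228 to -220 before the RefSeq start, on the strand opposite to the gene. This SPRY4 window (chr5:142324248-142324497) lies inside the GENCODE span of the gene (chr5:142310427-142326455). It thus precedes the RefSeq start used here but not the start of that span. The Maf recognition core TGCTGA (14.1% of all windows), the AP-1 site TGACTCA (4.16%) and the E-box CACGTG (6.49%) were in none of the 6 windows. Each match describes the letters of the reference genome, and binding was not measured here. The matches in SPRY2 and SPRY4 are shown with 10 bases on either side, along the strand of the gene, with the motif in capitals, from chr13:80341253-80341278 and chr5:142324457-142324485 of GRCh38.p14.
SPRY2: cctgcctcctCCGGAAaggcgagggc
SPRY4: gcgtctctggGCTTGGTCAggagccaccg

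**Figure D2:**
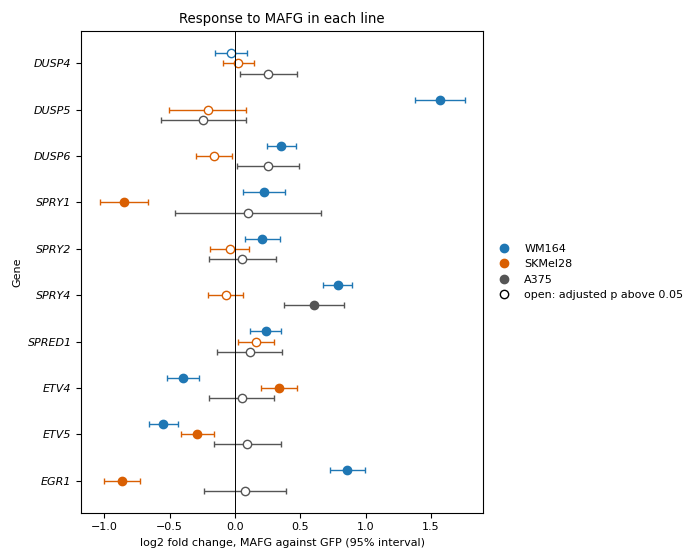
Log2 fold change of MAFG against GFP cells (horizontal axis) for each of the 10 genes (vertical axis) in WM164, SKMel28 and A375 cells, with 95% intervals; points are filled where the gene was called. EGR1 lies at 0.86 in WM164 and at -0.87 in SKMel28 cells, SPRY4 is the single filled point of A375 cells, and DUSP5 at 1.57 in WM164 is the farthest from 0.

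Whether the responses differed between lines was tested directly, as differences of the log2 fold changes in a model of all 18 libraries. Between WM164 and SKMel28 cells, 6 of the 10 genes differed, where 13.7% of 18767 tested genes did. The response in WM164 cells was higher for DUSP5 (by 1.78 on the log2 scale), EGR1 (1.73), SPRY1 (1.07), SPRY4 (0.86) and DUSP6 (0.52), and lower for ETV4 (-0.73), with adjusted p values from 5.72e-08 for EGR1 to 0.00208 for DUSP6 (edgeR). The remaining 4 were not shown to differ, with 95% intervals of -0.27 to 0.15 for DUSP4, -0.00 to 0.50 for SPRY2, -0.18 to 0.33 for SPRED1 and -0.51 to -0.01 for ETV5. Of these, SPRY2 was called on the log2(TPM + 1) scale (0.57, adjusted p = 0.0340, limma). ETV5 was called without A375 MAFG library 1 (-0.26, adjusted p = 0.0354, edgeR).

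Between WM164 and A375 cells, 4 of the 10 genes differed (9.21% of all genes). The response of DUSP5 was higher in WM164 by 1.80 (adjusted p = 4.61e-07, edgeR) and that of EGR1 by 0.78 (adjusted p = 0.00125, edgeR). The responses of ETV5 (-0.65, adjusted p = 0.00119, edgeR) and ETV4 (-0.46, adjusted p = 0.0236, edgeR) were lower in WM164. The ETV4 difference was lost without any of 5 libraries, WM164 GFP 1, WM164 MAFG 2 or 3 and A375 GFP 1 or 2 (adjusted p = 0.0532 to 0.0728), and the ETV4 and ETV5 differences were not called on the log2(TPM + 1) scale. Although SPRY4 was called in both of these lines, its responses were not shown to differ (0.18, 95% interval -0.03 to 0.38). The same was true of DUSP6 (0.10, -0.12 to 0.32), which was called in WM164 cells alone. DUSP4 was not called here (-0.29, adjusted p = 0.0811, edgeR). It was called with DESeq2 (-0.28, adjusted p = 0.0248) and without A375 MAFG library 3 (-0.35, adjusted p = 0.0392, edgeR).

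Between SKMel28 and A375 cells, 5 of the 10 genes differed (9.51% of all genes), all with the lower response in SKMel28. These were SPRY1 (-0.95, adjusted p = 0.0115), EGR1 (-0.95, adjusted p = 0.000199), SPRY4 (-0.68, adjusted p = 9.63e-05), DUSP6 (-0.42, adjusted p = 0.0142) and ETV5 (-0.39, adjusted p = 0.0486, all edgeR). The ETV5 difference was lost when any library other than A375 MAFG 2 or 3 was left out (adjusted p = 0.0588 to 0.136), and the DUSP6 difference was at an adjusted p of 0.0504 without SKMel28 GFP library 1. On the log2(TPM + 1) scale the DUSP6, SPRY1 and ETV5 differences were not called (adjusted p = 0.216, 0.0969 and 0.362, limma). The ETV4 difference was not called (0.28, adjusted p = 0.195, edgeR) but was without A375 MAFG library 1 (0.40, adjusted p = 0.00891, edgeR). The 3 tests between lines share libraries and are not independent of each other.

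**Figure D3:**
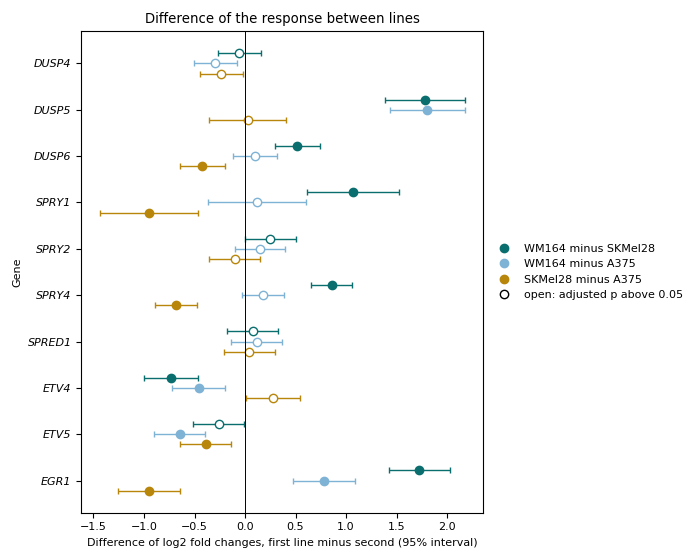
Difference of the log2 fold change between lines (horizontal axis, first line minus second, with 95% intervals) for each of the 10 genes (vertical axis), from a model of all 18 libraries; points are filled where the difference was called. DUSP5 lies near 1.8 in both comparisons with WM164 and at 0.02 between SKMel28 and A375 cells, and EGR1 differs in each of the 3 comparisons.

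The lines also differed in the level of these genes without the MAFG transgene. In GFP cells, 10 of 10 differed between WM164 and A375 (71.5% of all genes did), 9 between SKMel28 and A375 (68.6%) and 7 between WM164 and SKMel28 cells (56.8%). WM164 had more than A375 cells for 9 genes, by 1.37-fold for ETV4 to 17.2-fold for SPRY4 (adjusted p = 5.96e-20, edgeR). Between these ends lay SPRY1 (6.58-fold), EGR1 (4.02-fold), SPRY2 (3.85-fold), ETV5 (3.83-fold) and DUSP4 (2.64-fold). DUSP5 was the exception, 4.23-fold higher in A375 than in WM164 (adjusted p = 8.67e-12) and 4.79-fold higher than in SKMel28 cells (adjusted p = 3.07e-12, edgeR). SKMel28 had more than A375 cells for 7 genes, led by SPRY1 (7.95-fold) and EGR1 (7.44-fold), and less for DUSP5 and ETV4 (1.82-fold), while the difference of DUSP6 was not called (0.03 on the log2 scale, 95% interval -0.13 to 0.18). WM164 had more than SKMel28 cells for SPRY4 (4.54-fold), SPRY2 (3.06-fold), ETV4 (2.49-fold), DUSP6 (1.84-fold) and SPRED1 (1.42-fold) and less for EGR1 (1.85-fold) and DUSP4 (1.42-fold). On the log2(TPM + 1) scale the DUSP6 differences were not called between WM164 and SKMel28 (0.18 in place of 0.88, adjusted p = 0.351) or WM164 and A375 cells (0.33 in place of 0.90, adjusted p = 0.0862, limma). On that scale SPRY1 was called as lower in WM164 than in SKMel28 cells (-0.79, adjusted p = 0.00451, limma), and the sign of the SPRED1 difference between WM164 and SKMel28 cells and of the ETV4 difference between WM164 and A375 cells flipped.

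Across the 6 conditions, SPRY4 had the widest range, 29.7-fold between the highest and the lowest mean, and SPRED1 (2.37-fold), ETV4 (2.49-fold) and DUSP6 (2.63-fold) the narrowest. WM164 MAFG cells held the highest mean CPM of DUSP6, SPRY2, SPRY4 and SPRED1. A375 GFP cells held the lowest mean of DUSP4, SPRY1, SPRY2, SPRY4, SPRED1, ETV5 and EGR1. For SPRY4, as for ETV5, a single pair of neighbours in the order of the conditions overlapped. In the order of SPRY4, WM164 MAFG (1161 ± 26.1 CPM), WM164 GFP (673 ± 26.7), the overlapping SKMel28 conditions (148 ± 10.9 and 141 ± 5.00), A375 MAFG (59.6 ± 4.62) and A375 GFP cells (39.1 ± 0.876) followed each other. For DUSP6, WM164 MAFG (139.9 ± 4.15), WM164 GFP (109.3 ± 1.99) and A375 MAFG cells (70.0 ± 4.31 CPM) were separate, and A375 GFP cells (58.4 ± 5.47) overlapped both SKMel28 GFP (59.5 ± 1.75) and SKMel28 MAFG cells (53.2 ± 2.70). For DUSP5, A375 GFP (41.8 ± 4.97), A375 MAFG (35.5 ± 7.11) and WM164 MAFG cells (29.3 ± 1.05 CPM) formed a run of overlapping neighbours above the other 3 conditions.

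The levels of different genes can be compared per length only, on the TPM scale. In WM164 GFP cells, SPRY4 (98.1 ± 13.2 TPM), ETV5 (87.4 ± 26.6) and ETV4 (63.1 ± 3.76) were the most abundant and DUSP5 (2.37 ± 0.385 TPM) the least. In SKMel28 GFP cells, ETV5 (117 ± 8.85 TPM), EGR1 (57.1 ± 6.57) and DUSP4 (49.8 ± 3.74) led, and DUSP5 was again last (3.02 ± 0.234 TPM). In A375 GFP cells, ETV4 led (76.5 ± 3.72 TPM), followed by ETV5 (27.7 ± 11.3), and SPRY1 was last (4.15 ± 1.20 TPM). The summed level of the 10 genes was 380 ± 57.1 TPM in WM164 GFP and 517 ± 22.3 in WM164 MAFG cells, 376 ± 19.5 and 287 ± 12.6 TPM in SKMel28, and 187 ± 23.3 and 187 ± 17.9 TPM in A375 cells. The sums of GFP and MAFG libraries did not overlap in WM164 (316.6 to 428.1 and 496.5 to 540.6 TPM) or SKMel28 (364.3 to 398.5 and 272.7 to 296.9 TPM), in opposite directions, and they overlapped in A375 cells. The median log2 fold change of all genes on the log2(TPM + 1) scale moved the same ways, 0.14 in WM164 and -0.14 in SKMel28 cells. Its part in the sums was not tested. For single genes on the CPM scale, the libraries did not overlap for 43.4% of all genes in WM164 and 43% in SKMel28 cells.

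Other genes of the pathway were taken from fixed lists. Their counts are to be read against all genes, of which 16.2% rose and 15.6% fell in WM164 cells. The shares were 14.6% and 15.3% in SKMel28 cells, and 0.78% and 0.0634% in A375 cells. Among the other feedback inhibitors, 5 rose and 1 fell of 11 tested in WM164 cells, with a median log2 fold change of 0.34. ERRFI1, an inhibitor of EGF receptor signalling, rose from 43.7 to 137 CPM (log2 fold change 1.65, adjusted p = 1.67e-12, edgeR). SPRED3, a relative of SPRED1, rose from 5.58 to 16.1 CPM (1.53, adjusted p = 5.50e-09), and IL17RD, an inhibitor of FGF signalling, fell from 5.11 to 1.87 CPM (-1.45, adjusted p = 3.09e-05). In SKMel28 cells 1 rose and 1 fell of 11 (median 0.12): DUSP7, a phosphatase of ERK, rose (0.28, adjusted p = 0.0203), and SPRED2 fell (-0.16, adjusted p = 0.0443, edgeR). The DUSP7 call was lost without GFP library 1 or 2 or MAFG library 1 or 2 (adjusted p = 0.0582 to 0.0886) and on the log2(TPM + 1) scale (0.09, adjusted p = 0.576, limma). The SPRED2 call was lost without GFP library 2 or 3 or MAFG library 1 or 2 (adjusted p = 0.0658 to 0.153), with the size factors of DESeq2 (0.0504), without the count filter (0.0607) and in the model of all 18 libraries (0.109). In A375 cells 1 of 12 rose (median 0.03), DUSP10, a phosphatase of p38 and JNK, from 1.32 to 5.52 CPM (2.05, adjusted p = 0.00837, edgeR), and this call was lost without GFP library 1 (1.99, adjusted p = 0.0558) and on the TPM scales.

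Of 12 other genes known to follow ERK activity, 6 rose and 1 fell in WM164 cells (median 0.48), 2 rose and 6 fell in SKMel28 cells (median -0.30), and 0 passed the test of edgeR in A375 cells (median 0.05), where 3 had an unadjusted p under 0.05 and DESeq2 called 1. All genes had shares of 16.2% higher and 15.6% lower in WM164 and of 14.6% and 15.3% in SKMel28 cells. Those in A375 cells were 0.78% and 0.0634%. In WM164 cells, IER3 rose from 134 to 340 CPM (log2 fold change 1.34, adjusted p = 4.24e-12, edgeR), ETV1, the third PEA3 factor beside ETV4 and ETV5, rose from 115 to 181 CPM (0.66, adjusted p = 7.73e-08), and EMP1 fell from 204 to 84.0 CPM (-1.28, adjusted p = 1.92e-11). In SKMel28 cells, PLAUR, the urokinase receptor, fell from 31.6 to 16.7 CPM (-0.92, adjusted p = 8.42e-07, edgeR), PHLDA1 fell from 355 to 255 CPM (-0.47, adjusted p = 8.91e-06), and CCND1, cyclin D1, rose from 862 to 1216 CPM (0.50, adjusted p = 5.28e-06).

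Among 12 tested immediate early genes other than EGR1, 6 rose and 0 fell in WM164 cells (median 0.39), 3 rose and 6 fell in SKMel28 cells (median -0.19), and 1 rose in A375 cells (median 0.09). The shares over all genes were 16.2% higher and 15.6% lower in WM164, and 14.6% and 15.3% in SKMel28 cells. A375 cells had 0.78% and 0.0634%. In WM164 cells, JUN rose from 9.89 to 21.4 CPM (log2 fold change 1.12, adjusted p = 4.65e-08, edgeR), EGR3 by 0.46 (adjusted p = 1.51e-05) and JUNB by 0.40 (adjusted p = 0.000642), the last not called in the model of all 18 libraries (0.41, adjusted p = 0.0913). The 6 called there included EGR4, at 0.150 CPM with GFP and 0.718 CPM with MAFG (adjusted p = 0.0148, edgeR). With so little in the GFP libraries, EGR4 passed the filter on low counts through the MAFG libraries. DESeq2 called 5 genes of this list in WM164 cells. In SKMel28 cells, NR4A1 fell from 64.2 to 33.9 CPM (-0.92, adjusted p = 4.40e-08, edgeR), whereas CCN1 rose from 3.15 to 11.5 CPM (1.87, adjusted p = 3.74e-07) and EGR3, a relative of EGR1, rose from 12.9 to 26.2 CPM (1.03, adjusted p = 2.93e-06). In A375 cells EGR3 was called, at 0.142 CPM with GFP and 4.01 CPM with MAFG (adjusted p = 0.000473, edgeR). It was nearly undetected in the GFP libraries, so that it passed the filter on low counts through the MAFG libraries, and the call was lost on log2(TPM + 0.1) (adjusted p = 0.104, limma) and on unfiltered log2(TPM + 1) (adjusted p = 0.105, limma).

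The last list held the core cascade, from RAS and RAF to ERK and its adaptors. Of 21 tested, 6 rose and 3 fell in WM164, 2 rose and 6 fell in SKMel28 and 0 were called in A375 cells (edgeR), where 0 had an unadjusted p under 0.05 and DESeq2 called 0, with medians of 0.00, -0.01 and -0.01 and 0 genes past a fold change of 2 in any line. Of all genes, 16.2% rose and 15.6% fell in WM164, and 14.6% rose and 15.3% fell in SKMel28 cells. In A375 cells these shares were 0.78% and 0.0634%. The adaptor SHC1 rose in WM164 (log2 fold change 0.39, adjusted p = 2.84e-05) and fell in SKMel28 cells (-0.51, adjusted p = 1.28e-05, edgeR). In WM164 cells the kinase RPS6KA3 rose (0.32, adjusted p = 0.00124) and the adaptor GRB2 fell (-0.34, adjusted p = 0.00199), and both calls were lost on the log2(TPM + 1) scale (0.40, adjusted p = 0.124, and -0.06, adjusted p = 0.756, limma). In SKMel28 cells MAP2K2, which encodes a MEK kinase, fell (-0.54, adjusted p = 4.90e-05) and the phosphatase PTPN11 rose (0.33, adjusted p = 0.000613, edgeR).

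**Figure D4:**
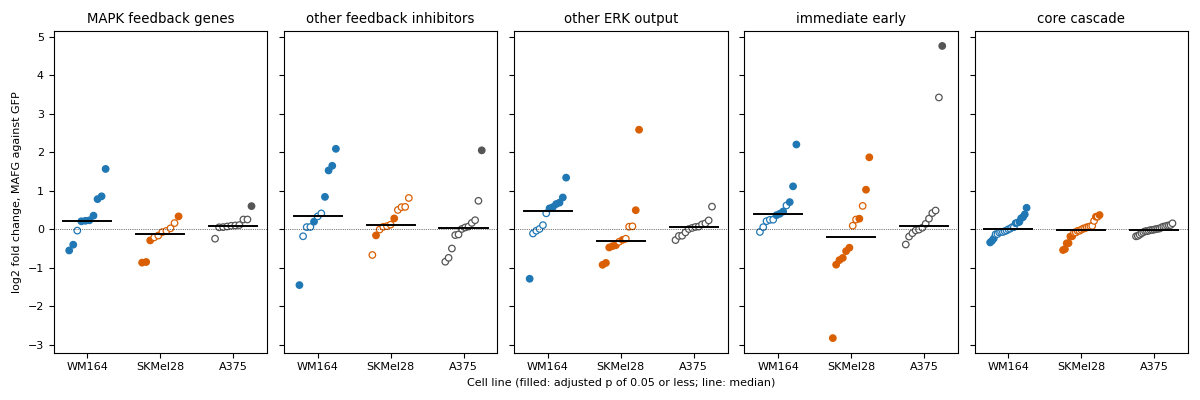
Log2 fold change of MAFG against GFP cells (vertical axis) for the genes of 5 lists in the 3 lines (horizontal axis), with filled points for called genes and a line at the median of each list. The medians of the feedback genes are 0.23, -0.12 and 0.10 in WM164, SKMel28 and A375 cells, and the core cascade stays within -0.54 and 0.56.

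The replicates of a condition varied little for most of the 10 genes: the coefficient of variation over 3 libraries had a median of 5.74%, from 0.282% for SPRY2 in SKMel28 MAFG to 34.7% for SPRY1 in A375 MAFG cells. After removal of the mean of each condition, the 10 genes were only loosely related over the 18 libraries, with a median Pearson r of 0.28 over 45 pairs (-0.49 to 0.70). DUSP6 was most like SPRY2 among them (r = 0.45), followed by SPRED1 (0.38) and ETV5 (0.35). Of 13376 genes tested in all lines, those with the closest pattern to DUSP6 were EXOSC10-AS1 (r = 0.90), SLC25A12 (0.88), CHRNA5 (0.86), PFDN4 (0.86) and XRCC4 (0.85). They are the top of a search over 13376 genes, and how high unrelated genes would reach in such a search was not tested. Their r values therefore cannot be set against those of SPRY2, SPRED1 and ETV5, which were not picked from that search. These correlations describe the deviations of 18 libraries from their condition means. The libraries differed in depth (20122172 to 39025042 counts), and the part of depth in the correlations was not tested.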

How the data were processed

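RNA-seq of 18 libraries was used, in 3 lines with GFP or MAFG, 3 libraries each. The authors deposited whole-number counts per gene, without normalization. TPM, as the authors deposited it, sums to the same total in each library. The submitters' processing notes name cutadapt 1.8.1, STAR 2.7.7a, RSEM 1.3.0, DESeq2 and GRCh38. The annotation release and the strand setting of counting are not given in the sources used here, and the labels (a kit without strand) and the methods (a stranded kit) differ, so that genes that overlap others are less certain. Positions and overlaps came from GENCODE 44, which held 58517 of the 58870 identifiers.

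Within each line, the MAFG and GFP libraries (6 in all) were compared with R 4.3.3 and edgeR 4.0.16 (TMM, filterByExpr, quasi-likelihood F test), with Benjamini-Hochberg adjustment over all tested genes. Differences between lines and levels in GFP cells were contrasts of a model of all 18 libraries. Alternatives were DESeq2 1.42.0, its size factors, no filter, at least 10 counts in every library, a replicate block, all 18 libraries in one model, limma 3.58.1 on log2(TPM + 1) and log2(TPM + 0.1), keeping genes that reached 1 TPM in 3 libraries, or without that filter, and each library left out in turn. The test was tested on simulated data with 200 changed genes. Nothing states that libraries came from separate cultures, so p-values measure the spread between these libraries, which may be technical. An exact permutation test of 3 against 3 libraries cannot go below 0.1 and was not used.

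The 10 genes, the lists (other feedback inhibitors, other ERK output, immediate early, core cascade, melanocyte markers, markers of other cells) and the tests were chosen with earlier results of these data known. Named genes beyond the 10 and MAFG were up to 3 per list and line with the smallest adjusted p among those called, and the 5 genes with the highest Pearson r to DUSP6. Motifs were searched with Python 3.11.15, and figures drawn with matplotlib 3.10.9.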

Additional observations from a re-analysis of the deposited data

Results flagged for a closer look

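The responses that differed between lines are those in which the difference of the log2 fold changes itself passed edgeR's test over all genes. Between WM164 and SKMel28 cells these were DUSP5 (1.78), EGR1 (1.73), SPRY1 (1.07), SPRY4 (0.86), DUSP6 (0.52) and ETV4 (-0.73), first line minus second. EGR1, SPRY1 and ETV4 were also called in each of these lines on its own, in opposite directions. Between WM164 and A375 cells they were DUSP5 (1.80), EGR1 (0.78), ETV5 (-0.65) and ETV4 (-0.46). Between SKMel28 and A375 cells they were SPRY1 (-0.95), EGR1 (-0.95), SPRY4 (-0.68), DUSP6 (-0.42) and ETV5 (-0.39). The cause of these differences was not tested.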

How the results depend on the processing

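Limits: 3 libraries a condition bound every test, separate cultures are not stated, and low counts widen the intervals of SPRY1 in A375 cells. Of the 150 log2 fold changes of feedback genes recomputed in each line, 122 (WM164), 135 (SKMel28) and 127 (A375) kept their direction and call, as did 670 of 720 response differences and 709 of 720 GFP level differences. The cause of each change listed here was not tested.

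The number of all genes called in WM164 cells was 5065, and 3022 in the model of all 18 libraries, 1918 on log2(TPM + 1), 1853 on log2(TPM + 0.1) and 1306 on log2(TPM + 1) without filter. In SKMel28 cells it was 4640, and 3038, 2575, 2542 and 1625 under the same alternatives. In A375 cells it was 133, and 506, 19, 15 and 5 under these, 278 with DESeq2, 328 without a count filter, 84 where every library had to hold 10 counts and 59 to 393 with a library left out, the highest without A375 MAFG 1. The feedback genes called in WM164 cells went from 9 to 6 in the model of all 18 libraries. On the TPM scales they went to 5, 5 and 4, with 2 past a fold change of 2 in place of 1. With any of 4 libraries left out they went to 7. Those past a fold change of 2 in SKMel28 cells went from 0 to 1 on all 3 TPM scales. In A375 cells 0 feedback genes were called on the TPM scales, and 0 to 1 with a library left out.

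The following signs turned. On log2(TPM + 1), with or without filter, DUSP4 was at 0.16 in WM164 and -0.17 in SKMel28 cells, SPRED1 at -0.079 in SKMel28, and SPRY2 at -0.043, ETV4 at -0.15 and EGR1 at -0.026 in A375 cells. On log2(TPM + 0.1) the same values were 0.17, -0.17, -0.085, -0.045, -0.16 and -0.028. The response differences on log2(TPM + 1) became 0.33 for DUSP4 and 0.37 for ETV5 between WM164 and SKMel28, 0.034 for DUSP4 and 0.0058 for ETV4 between WM164 and A375, and -0.10 for SPRED1 between SKMel28 and A375 cells. Level differences in GFP cells became -0.26 for DUSP5, -0.33 for SPRED1 and -0.47 for ETV5 between WM164 and SKMel28 and -0.27 for ETV4 between WM164 and A375 cells, and without a count filter DUSP6 was at -0.0060 between SKMel28 and A375. With a library left out, DUSP4 ranged from -0.081 to 0.0024 in WM164 and from -0.0036 to 0.061 in SKMel28 cells. In A375 cells the ranges were -0.15 to 0.34 for SPRY1, -0.025 to 0.12 for SPRY2, -0.045 to 0.13 for ETV4, -0.0073 to 0.17 for ETV5 and -0.058 to 0.15 for EGR1. The response differences ranged from -0.14 to 0.36 for SPRY1 between WM164 and A375, and from -0.094 to 0.19 for DUSP5 and -0.016 to 0.15 for SPRED1 between SKMel28 and A375, and the DUSP6 level difference between SKMel28 and A375 from -0.027 to 0.10.

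The response differences called between WM164 and A375 went from 4 to 2 on log2(TPM + 1). Between SKMel28 and A375 cells they went from 5 to 3 without a count filter, to 2 on log2(TPM + 1) and to 3 to 5 with a library left out, the fewest without SKMel28 GFP 1; over all genes they were 657 on log2(TPM + 1) in place of 1784. Between WM164 and A375 they were 1312 to 2694 over all genes with a library left out, the most without A375 MAFG 1.

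Same-numbered GFP and MAFG libraries correlated at -0.05 to 0.03 in WM164, -0.03 to 0.02 in SKMel28 and -0.11 to 0.03 in A375 cells. Libraries of unlike number correlated at -0.07 to 0.05, -0.02 to 0.04 and -0.08 to 0.16 in the same order. Deviations from a mean of 3 libraries are tied to each other, so these values cannot decide whether the numbers pair the libraries. With the number as a replicate block, 9, 4 and 0 feedback genes were called in WM164, SKMel28 and A375 cells, where SPRY4 kept its log2 fold change of 0.60 but not its call (adjusted p = 0.165, edgeR) and 64 of all genes were called in place of 133. Of the response differences, 3 were called between SKMel28 and A375, without DUSP6 (adjusted p = 0.0566) and ETV5 (0.0819), and 3 between WM164 and A375, without ETV4 (-0.45, adjusted p = 0.0719, edgeR).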
